A study of Homo sapiens with 2 samples.

Results

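The zinc finger genes of human chromosome 19 were described in 2 RNA-Seq libraries of heat-shocked HEK293T cells. The members were all protein-coding genes of chromosome 19 in a GRCh37 annotation whose symbol is ZNF followed by a number and at most 1 letter, and whose identifier was listed in both libraries. The annotation held 246 such genes, of which 244 were listed and formed the set, among 57736 listed genes. The other 2, ZNF229 and ZNF8, were not analysed here.

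HEK293T is a line of human embryonic kidney cells that carries the SV40 large T antigen. Both libraries came from wild-type cells held for 20 min at 43 °C and then for 6 h at 37 °C, each lysed separately, and formed 1 group of 2 replicates. The time of 20 min is that of the sample records, whereas the text of the study gives a longer time at 43 °C. Poly(A)+ RNA was read at a length of 50 bp. No library of untreated cells was analysed here, so the values describe cells after heat shock and recovery, and nothing in them can be attributed to the heat shock.

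Genes of the C2H2 zinc finger family encode transcription factors in which each finger folds around a zinc ion held by a pair of cysteines and a pair of histidines. Successive fingers are usually joined by a short conserved linker, and an array of fingers reads a stretch of DNA. Many members carry at their amino-terminal end a KRAB domain, which recruits the co-repressor TRIM28 (KAP1) and through it the histone methyltransferase SETDB1 and HP1 proteins. The family expanded in primates by tandem duplication, above all on chromosome 19, and many of its proteins bind transposable elements.

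The repeated finger unit is what makes these genes alike, and it bears on how well short reads from them can be told apart. For 4 members that recur below, the first finger of regular spacing that is directly followed by the linker peptide TGEKP is given, read from GRCh37. Fingers with another spacing or linker may lie before it in the protein. All 4 printed units lie in coding sequence, and the capitals mark the linker codons. ZNF91 lies at chr19:23544896-23544979 on the minus strand, ZNF714 at chr19:21299990-21300073 on the plus strand, ZNF146 at chr19:36727562-36727645 on the plus strand and ZNF224 at chr19:44610929-44611012 on the plus strand.
ZNF91: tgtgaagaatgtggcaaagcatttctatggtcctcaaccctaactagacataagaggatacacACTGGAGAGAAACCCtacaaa
ZNF714: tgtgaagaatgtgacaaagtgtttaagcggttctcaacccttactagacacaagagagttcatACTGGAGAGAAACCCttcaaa
ZNF146: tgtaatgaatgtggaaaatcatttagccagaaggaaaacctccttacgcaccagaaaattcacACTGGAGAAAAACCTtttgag
ZNF224: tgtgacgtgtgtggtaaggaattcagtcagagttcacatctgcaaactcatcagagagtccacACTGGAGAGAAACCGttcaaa

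The 15 bases of the linker were counted in the longest reading frame of each member. The linker peptide occurred 1430 times in 211 of the members and was written with 137 distinct sequences. The most frequent of them, actggagagaaaccc, made up 22.6% of the copies and stood in 96 genes. The ZNF91 and ZNF714 fingers above carry this form, and those of ZNF146 and ZNF224 carry other forms. The median member had 12 fingers in a protein of 592 residues, and the range was 1 to 36 fingers. A KRAB-like pattern was read in 205 members and not in 38, and the reading frame of 1 member, ZNF274, could not be read in this build.

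The libraries held 22529828 and 26890199 expected counts, that is, reads assigned to genes by a program that shares multi-mapped reads among them. The members together took 0.163% of these counts in replicate 1 and 0.193% in replicate 2. All 7 matched genes that mark the HEK293 line or embryonic kidney were detected, whereas of 10 markers of mature kidney epithelium 1, LRP2, was detected, and the summed TPM of these 10 was 5.81 and 7.0. Of the 4 matched markers of other cells, COL1A1 and COL3A1 were detected and PTPRC was at 0. The part of such genes in the results was not tested. In bulk RNA, fewer cells expressing a gene and less RNA per cell cannot be told apart.

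Zinc finger genes of chromosome 19 were expressed at low levels. TPM is the share of a gene among all transcripts of a library, scaled to the length of the gene and to a fixed total, and a gene was called detected where it reached 1 in both libraries. Of the 244 members, 158 were detected, or 64.8% (exact 95% interval 58.4 to 70.7%). The interval covers counting error only and treats genes as independent, which neighbouring duplicates are not. The median level was 1.83 TPM in replicate 1 and 2.51 TPM in replicate 2, with a mean of 2.17 ± 0.477 (SD of the 2 library medians). The median over members of the mean TPM of both libraries, the measure set beside other genes here, was 2.20.

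Other protein-coding genes of chromosome 19 were detected at a like share, 61.0% of 1205, but with a higher median of 5.53 TPM. Of the 256 protein-coding ZNF genes on the other chromosomes, 83.2% were detected, and their median was 7.78 TPM. The share over all 19391 protein-coding genes was 63.8%, with a median of 6.19 TPM. Genes are not replicates, so these shares and medians are descriptions without a test.

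Both libraries ranked the members alike. Over the 244 members, the correlation of log2(TPM + 1) between the libraries was 0.967 (Pearson) and 0.963 (Spearman), across genes that share the same 2 libraries. Of the 17 members detected in a single library, 13 were in replicate 2 and 4 in replicate 1. At the limit of detection, ZNF345 was just inside with 1.00 and 1.26 TPM, and ZNF726 just outside with 0.93 TPM in both libraries.

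At the top of the range, 18 members reached 10 TPM in both libraries. The 10 highest held 38.5% of all member TPM, and 9 of these lacked the KRAB-like pattern. ZNF358 was the highest at 112 and 105 TPM. ZNF580, which encodes a protein of only 3 fingers, followed at 95 and 79.8 TPM. ZNF428, with a single finger, was at 51.8 and 46.0 TPM. These short genes without the repressor domain stood above every member that carried it.

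The others of the 10 were ZNF414 at 47.4 and 38.3 TPM, ZNF146 at 21.9 and 52.4 TPM, ZNF787 at 32.8 and 25.2 TPM, ZNF444 at 25.7 and 26.3 TPM, ZNF121 at 16.9 and 32.5 TPM, ZNF581 at 24.7 and 23.9 TPM, and ZNF317 at 18.2 and 19.2 TPM. ZNF146 consists almost only of fingers, and ZNF317 was the highest member with a KRAB-like pattern. The order within this group was not stable, since ZNF146 ranked below ZNF787 in replicate 1 and above it in replicate 2. ZNF580 and ZNF581 overlap, from position 56146382 and 56146825 on the plus strand, and share 11.7% and 19.6% of their 50-base sequences with each other, so reads from them cannot be fully told apart.

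At the bottom, 31 members were under 0.1 TPM in both libraries, and 13 had no count in either. A count of 0 allows up to 3 counts, or 0.133 and 0.112 CPM (counts scaled to library size) in replicates 1 and 2, for counting error only. The first 5 of the 13 along the chromosome were ZNF558, ZNF560, ZNF491, ZNF69 and ZNF878, followed by ZNF90, ZNF676, ZNF729, ZNF98, ZNF99, ZNF728, ZNF730 and ZNF415. Of these, 12 lay on the short arm and 7 of them in a single cluster near the centromere. Not detectable at this depth does not mean absent, above all for members with near-identical copies.

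Members with a KRAB-like pattern were at lower levels than members without. Among the 205 with the pattern, 126 were detected and the median was 1.82 TPM. Among the 38 without, 31 were detected and the median was 6.55 TPM. The groups also differed in sequence, with a median GC content of 45.3% against 60.5% and a median of 13 against 9.5 fingers. Their parts in the difference of levels were not tested.

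**Figure D1:**
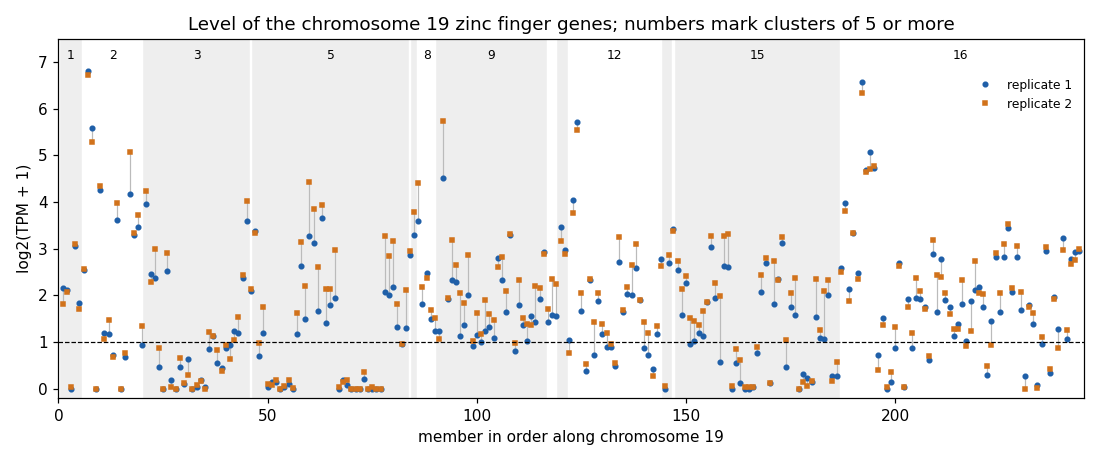
The vertical axis gives log2(TPM + 1) of each of the 244 members, with circles for replicate 1 and squares for replicate 2 joined by a grey line, and the horizontal axis gives their order along chromosome 19. Grey and white bands separate the 16 position clusters, the dashed line marks 1 TPM, and stretches of members at the base line alternate with stretches above it.

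Levels were then followed along the chromosome. Members were placed in the same cluster where no gap between the end of a member and the start of the next exceeded 1 Mb, which gave 16 clusters, 9 of them with at least 5 members. These 9 held 233 of the 244 members. On the short arm 41 of 83 members were detected, with a median of 1.18 TPM, and on the long arm 117 of 161, with a median of 2.69 TPM.

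The cluster with the lowest share was the third, at 11594242 to 12750912, where 9 of 25 members were detected (36.0%, exact 95% interval 18.0 to 57.5%) and the median was 0.615 TPM. The fifth cluster, at 19779605 to 24312770 on the short arm, followed with 17 of 37 members (45.9%, interval 29.5 to 63.1%). In the ninth cluster, at 36673178 to 38307940 on the long arm, 24 of 26 members were detected (92.3%, interval 74.9 to 99.1%). At a limit of 0.1 TPM the order of these changed, with 22 of 37 members of the fifth cluster and 18 of 25 of the third at or above it. The intervals treat neighbouring genes as independent, and these clusters were picked by the same shares. The differences between clusters are therefore descriptions and were not tested.

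In the last cluster, at 55987984 to 58992597, 43 of 58 members were detected, and in the fifteenth, at 52074536 to 54083523, 22 of 39. The twelfth, at 44029649 to 45579736, had 14 of 23 detected, and the second, at 7069714 to 9903856, had 10 of 15. All 5 members of the eighth cluster and 4 of 5 in the first were detected, with intervals too wide to place them. The highest member of each cluster was ZNF57 in the first (7.27 and 7.60 TPM), ZNF358 in the second, ZNF653 in the third (14.5 and 17.8 TPM), ZNF714 in the fifth (8.67 and 20.4 TPM), ZNF302 in the eighth (11.0 and 20.2 TPM), ZNF146 in the ninth, ZNF428 in the twelfth, ZNF320 in the fifteenth (7.77 and 8.45 TPM) and ZNF580 in the last.

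**Figure D2:**
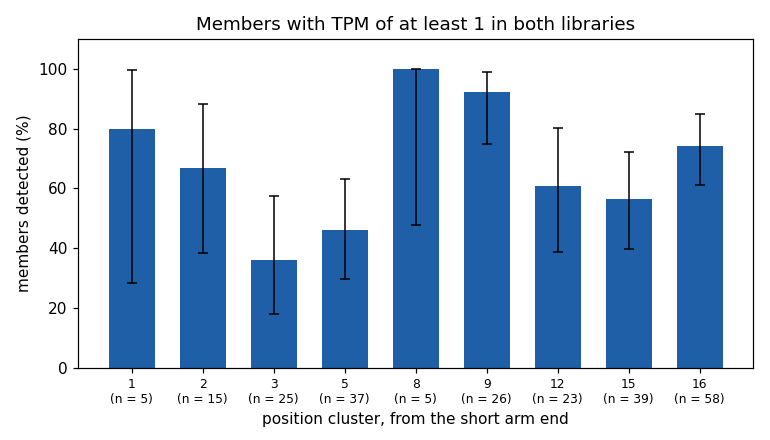
Bars give the percent of members with at least 1 TPM in both libraries in the 9 clusters of 5 or more members, numbered from the short arm end, with exact 95% intervals and the number of members under each bar. The third cluster is lowest at 36.0% and the ninth is highest among clusters of over 10 members at 92.3%.

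Detected and undetected members often stood in blocks. Among 228 pairs of neighbours within clusters, both were detected in 108, neither in 48 and a single member in 72. The correlation of log2(TPM + 1) between neighbours was 0.38 (Pearson) and 0.36 (Spearman) over these pairs, which share their libraries and in part their sequence. Of the 86 undetected members, 43 stood in 6 unbroken runs of at least 4 genes. These counts were not set against those that the share of detected members alone would give. The runs depend on the limit, and at 0.1 TPM the longest undetected run was 4 genes.

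The longest undetected run lay in the fifth cluster, from ZNF43 to ZNF730 (21987752 to 23330023). Its 11 genes, ZNF43, ZNF208, ZNF257, ZNF676, ZNF729, ZNF98, ZNF492, ZNF99, ZNF723, ZNF728 and ZNF730, spread over 1342 kb and together received 17.3 counts in replicate 1 and 35.0 counts in replicate 2. ZNF492 was the highest of them at 0.15 and 0.27 TPM, and 6 were at 0 in both libraries. A stretch of more than a megabase was thus almost without reads from these genes.

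Directly before it lay the longest detected run, the 10 genes from ZNF66 to ZNF100 (20959110 to 21950381). These 10 received 1652 and 3686 counts, and their levels ran from 1.26 to 20.4 TPM over both libraries. The last detected gene, ZNF100, was at 2.86 and 6.80 TPM, and the first undetected gene, ZNF43, was at 0.00 and 0.02 TPM. The genes are separated by 37.4 kb. Levels rose again on the far side, where ZNF724, 74.4 kb beyond the end of ZNF730, was at 3.23 and 8.72 TPM, and ZNF91, which represses SVA elements and other transposons, at 3.04 and 6.16 TPM.

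A second undetected run of the fifth cluster held the 7 genes from ZNF253 to ZNF626 (19976691 to 20844402), with 8.26 and 20.6 counts in all. It includes ZNF93, which binds LINE elements, at 0.11 and 0.06 TPM. The detected 10 genes thus stood between undetected blocks on both sides. Median GC content was 40.0% in the run of 11, 42.5% in the detected run of 10 and 42.7% in the run of 7. The median share of 50-base sequences also present in other genes was 7.78%, 4.25% and 4.88% in the same order, and the part of either measure in the levels was not tested.

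**Figure D3:**
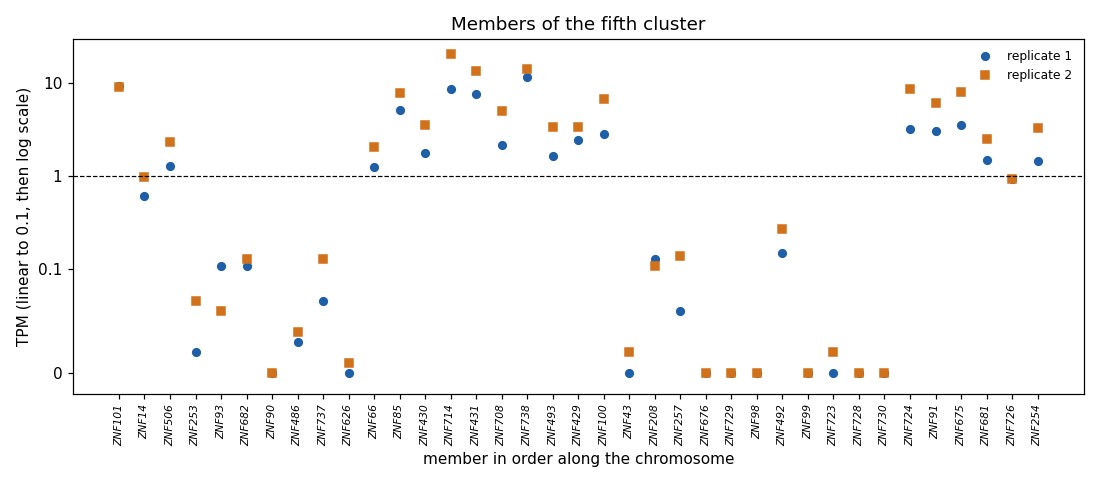
TPM of the 37 members of the fifth cluster in their order along the chromosome, on an axis that is linear up to 0.1 and logarithmic above, with circles for replicate 1 and squares for replicate 2 and a dashed line at 1 TPM. The 7 genes from ZNF253 to ZNF626 and the 11 genes from ZNF43 to ZNF730 lie at or below 0.27 TPM, and the 10 genes between them lie at or above 1.26 TPM.

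Undetected runs also stood in other clusters. In the third cluster the 10 genes from ZNF439 to ZNF136 (11959541 to 12300686) received 92 and 123 counts and reached 1.31 TPM in a single library. In the fifteenth cluster the 7 genes from ZNF610 to ZNF701 (52839496 to 53090427) received 72.4 and 109 counts, and this median share was 1.81%. ZNF808, whose protein binds MER11 elements, belongs to this run and was at 0.02 and 0.03 TPM. In contrast, the 9 genes from ZNF628 to ZNF444 in the last cluster, none with a KRAB-like pattern, took 6122 and 6116 counts, with a median GC content of 66.7%.

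The promoters on either side of the boundary between detected and undetected genes are shown, since the level changes between these neighbours. Each window runs from 250 bases before to 50 bases after the RefSeq start, in build GRCh38.p14, on the minus strand, and capitals mark CG dinucleotides. The ZNF100 window is chr19:21767530-21767829 and holds 10 CG dinucleotides. The ZNF43 window is chr19:21836133-21836432 and holds 12.
ZNF100: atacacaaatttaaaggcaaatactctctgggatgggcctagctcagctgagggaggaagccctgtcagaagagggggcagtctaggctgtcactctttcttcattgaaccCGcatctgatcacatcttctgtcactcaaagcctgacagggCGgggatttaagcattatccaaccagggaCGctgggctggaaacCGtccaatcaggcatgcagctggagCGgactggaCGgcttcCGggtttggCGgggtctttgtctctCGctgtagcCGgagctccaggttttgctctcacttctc
ZNF43: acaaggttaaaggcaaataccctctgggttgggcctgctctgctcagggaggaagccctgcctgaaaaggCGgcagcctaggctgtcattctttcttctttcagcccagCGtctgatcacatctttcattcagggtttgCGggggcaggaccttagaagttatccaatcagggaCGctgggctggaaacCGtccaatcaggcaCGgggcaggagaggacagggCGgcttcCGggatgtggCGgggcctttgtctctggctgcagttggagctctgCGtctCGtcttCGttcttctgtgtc

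Of the 244 members, 214 were matched to such a window by symbol. The median number of CG dinucleotides per window was 21 in detected members and 16 in undetected members. Over all protein-coding genes it was 27 in detected and 6 in undetected genes. Windows with fewer than 10 made up 11.3% of those of undetected members, against 60.3% of those of undetected protein-coding genes. The difference between detected and undetected genes was thus smaller within the members than over all genes.

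The binding motif of heat shock factor was also looked for, as GAANNTTC or TTCNNGAA. Each is its own reverse complement, so both strands were covered, and matches of the pair may overlap. It occurred in 15.4% of the member windows and in 13.7% of all windows of the same length. In detected members the share was 10.5%, or 15 of 143, and in undetected members 25.4%, or 18 of 71. Over all protein-coding genes the shares were 9.46% in detected and 15.2% in undetected genes, the same order. A match is a description of letters and not a site.

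Short reads cannot always be given to a single member. Across members a median of 2.97% of the 50-base sequences of the reference transcripts also occurred in another gene on the same strand. This share passed 10% in 54 members, and 178 shared at least 1 such sequence with another member. The 5 most shared were ZNF177 (86.6%), ZNF625 (81.2%), ZNF709 (79.1%), ZNF564 (67.0%) and ZNF20 (51.8%), and the gene shared with ZNF177, ZNF625 and ZNF20 was a readthrough transcript of neighbours. Their levels are uncertain, and ranged from ZNF625 at 0.03 and 0.00 TPM to ZNF564 at 1.3 and 1.91 TPM, and ZNF709 had a posterior SD of 14.1 and 11.9 counts against 26.0 and 24.5 counts.

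For 3 pairs of close copies, a stretch of 50 bases that both members hold is given in GRCh37, since a read of that length from it could come from either. ZNF98 (chr19:22575140-22575189, minus strand) and ZNF492 (chr19:22847196-22847245, plus strand) are identical over 417 bases at most. ZNF443 (chr19:12542743-12542792) and ZNF799 (chr19:12502969-12503018), both on the minus strand, are identical over 174 bases. ZNF417 (chr19:58421325-58421374, minus strand) and ZNF587 (chr19:58370052-58370101, plus strand) are identical over 538 bases.
ZNF98 and ZNF492: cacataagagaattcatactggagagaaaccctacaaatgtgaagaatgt
ZNF443 and ZNF799: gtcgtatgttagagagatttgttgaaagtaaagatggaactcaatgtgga
ZNF417 and ZNF587: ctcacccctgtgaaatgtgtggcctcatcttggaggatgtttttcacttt

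ZNF98 was at 0 counts in both libraries, while ZNF492 received 11.3 and 23.8 counts, and 41.0% of the 50-base sequences of ZNF98 occur in other genes. ZNF443 was at 0.91 and 0.55 TPM and ZNF799 at 0.84 and 0.91 TPM. ZNF417 was at 2.20 and 3.19 TPM and ZNF587 at 6.12 and 7.29 TPM. The split of reads within each pair rests on the bases at which the copies differ. Over the whole set, 28 members had a posterior SD above 25% of their count in a library. Strand use in counting was not given, and 131 members are overlapped by another listed gene on the opposite strand, 103 on the same strand and 65 by none.

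The replicates were then set against each other. The log2 ratio is the count of replicate 2 over that of replicate 1, scaled by TMM with a pseudocount of 0.5 count, and a gene was called where an exact two-sided binomial test gave a Benjamini-Hochberg adjusted p under 0.05 over all genes whose counts summed to 10 or more. The test compares these 2 libraries against counting error and not conditions. No spread between further replicates enters it, so a call shows a difference between libraries that should be alike.

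Members were more often higher in replicate 2. Of 206 tested members, 63 were called higher in replicate 2, or 30.6%, beside 20.9% of all genes tested, and 16 were called higher in replicate 1, or 7.77%, beside 22.2% of all genes tested. The share toward replicate 2 was closer to that of other protein-coding genes whose GC content lies within the quartiles of the members. Of 3389 such genes tested, 916 were called toward replicate 2 (27.03%) and 541 toward replicate 1 (15.96%). The median log2 ratio of the members was 0.24, with a range of -0.88 to 2.39, and 148 lay above 0. Over all genes tested the median was near 0, at -0.0013. All 26 members that differed by at least 1 on the log2 scale were higher in replicate 2. The same count was not made over all genes. By the stricter edgeR test below, calls over all 19714 genes tested also leaned to replicate 2, with 1319 higher in it and 108 higher in replicate 1.

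The other protein-coding genes of chromosome 19 went the other way. Their median log2 ratio was -0.24, and 18 of 869 were called higher in replicate 2 and 470 in replicate 1. Their median GC content was 60.0%, and with the GC trend removed, as described below, their median was -0.0053, with 72 and 139 called. The ZNF genes of the other chromosomes leaned to replicate 2 as the members did, with a median of 0.11. Of 231 tested, 87 were called toward replicate 2 and 39 toward replicate 1. Once the same trend was taken out, these counts were 78 and 10, and the median was 0.13. By the stricter edgeR test below they were 46 and 0. The lean was thus not particular to the ZNF genes of chromosome 19. These medians are given side by side and the differences were not tested, since genes are not replicates.

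Among members whose counts summed to 100 or more, the largest ratios were those of ZNF91, ZNF480, ZNF254, ZNF100 and ZNF493. ZNF91 received 68.5 and 270 counts, a log2 ratio of 1.67 (adjusted p = 8.70e-20, exact binomial test). ZNF480 received 148 and 527 counts, a log2 ratio of 1.52 (adjusted p = 1.09e-33, exact binomial test). Except for ZNF480, these genes lie in the fifth cluster. On the TPM scale the differences of both were smaller, 3.04 and 6.16 TPM for ZNF91 and 5.13 and 8.90 TPM for ZNF480. The effective length that the quantifier derived differed between the libraries, at 1238 and 2109 bases for ZNF91 and 1584 and 2855 bases for ZNF480.

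ZNF254 had a log2 ratio of 1.36 (84.4 and 268 counts), ZNF100 of 1.26 (104 and 307 counts) and ZNF493 of 1.23 (66.8 and 194 counts). In the other direction the largest were ZNF554 at -0.55 (172 and 145 counts), ZNF699 at -0.54 (71.3 and 60.5 counts, not called), ZNF787 at -0.52, ZNF414 at -0.48 and ZNF574 at -0.43. With the GC trend removed ZNF254 had 0.79, ZNF787 -0.25, ZNF414 -0.18 and ZNF574 -0.19, and ZNF414 and ZNF574 were no longer called. The differences toward replicate 1 were thus smaller than those toward replicate 2. Of the 10 members of highest level, 6 were called higher in replicate 1 and 2, ZNF146 at 1.11 and ZNF121 at 0.84, higher in replicate 2. Of these 6, ZNF787 alone was still called with the GC trend removed, when ZNF444 was called higher in replicate 2, and none of the 6 was called by the stricter edgeR test below.

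The ratio followed GC content. Over the 206 members the correlation of the log2 ratio with the mean GC content of the gene's transcripts was -0.58 (Pearson) and -0.62 (Spearman), a description across genes that share the same 2 libraries. In the lowest GC quartile of the members the median ratio was 0.78. Of its 44 tested members, 29 were called higher in replicate 2 (65.9%, beside 20.9% of all genes tested) and 0 higher in replicate 1 (beside 22.2%). By the stricter edgeR test below 18 and 0 were called (beside 6.69% and 0.548%). In the following quartiles the medians were 0.42, 0.23 and -0.14. All 16 calls toward replicate 1 lay in the highest quartile, or 28.1% of its 57 tested members, beside 22.2% of all genes tested. Another 3 of the 57 were called higher in replicate 2 (5.26%, beside 20.9%).

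**Figure D4:**
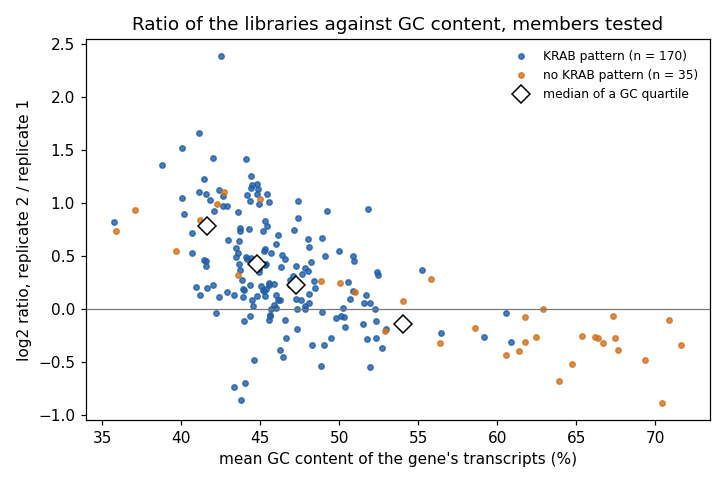
Each point is a tested member, with the mean GC content of its transcripts in percent on the horizontal axis and the log2 ratio of replicate 2 over replicate 1 on the vertical axis, coloured by the KRAB-like pattern. Diamonds mark the median of each GC quartile and fall from 0.78 to -0.14 with rising GC content.

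The same trend over all genes was therefore removed, as the median ratio in 50 classes of GC content, which sets the median of each class to 0. Of the 206 members, 48 were then called higher in replicate 2, beside 14.6% of all genes tested, and 3 higher in replicate 1, beside 14.2% of all genes tested. The median of the members was 0.19, against 0.02 over all genes tested, and -0.0070 over the protein-coding genes that lie within the GC quartiles of the members. Among the 3389 tested genes of that last class, 636 were called toward replicate 2 and 696 toward replicate 1. Of the members called under both scalings in the same direction, 44 of 46 were higher in replicate 2. This count was not made over all genes, and both scalings use the same 2 libraries. GC content within the members left a remainder as well, since the medians of the quartiles were 0.36, 0.30, 0.21 and 0.02.

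A stricter test, the exact test of edgeR, took 0.1 as the BCV, the coefficient of variation between biological replicates. Under it 30 members were called higher in replicate 2, beside 6.69% of all genes tested, and 0 higher in replicate 1, beside 0.548% of all genes tested. ZNF91 (adjusted p = 2.80e-07, edgeR), ZNF480 (adjusted p = 7.20e-08, edgeR) and ZNF146 (adjusted p = 1.44e-05, edgeR) were among those called. By the binomial test the count of members higher in replicate 1 was 16. The value of the coefficient was assumed and not estimated.

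By position, the ratio was highest in the fifth cluster among those of over 10 members. Its 21 tested members had a median log2 ratio of 0.92. By the binomial test 15 were called higher in replicate 2 (71.4%, beside 20.9% of all genes tested) and 0 higher in replicate 1 (beside 22.2%). By the stricter edgeR test 9 and 0 were called (beside 6.69% and 0.548%). The tenth cluster, of only 3 members, had a higher median of 1.13, and of 0.99 with the GC trend removed. With the GC trend removed the median of the fifth cluster was 0.70, with 12 called higher in replicate 2 and 0 higher in replicate 1 (beside 14.6% and 14.2%). The median GC content of the fifth cluster, 41.5%, was also low. ZNF714, the highest gene of the cluster, received 607 and 1494 counts, a log2 ratio of 1.00 (adjusted p = 8.64e-49, exact binomial test) and of 0.70 with the GC trend removed.

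The ninth and the fifteenth cluster had medians of 0.48 and 0.51, and of 0.28 and 0.42 with the GC trend removed. The last cluster, with a median GC content of 51.2%, had a median of -0.01, and of 0.08 with the GC trend removed. Of its 54 tested members, 6 were called higher in replicate 2 (11.1%, beside 20.9% of all genes tested) and 9 higher in replicate 1 (16.7%, beside 22.2%). Neighbours within clusters had correlated ratios, 0.34 (Pearson) over 170 pairs and 0.17 with the GC trend removed.

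**Figure D5:**
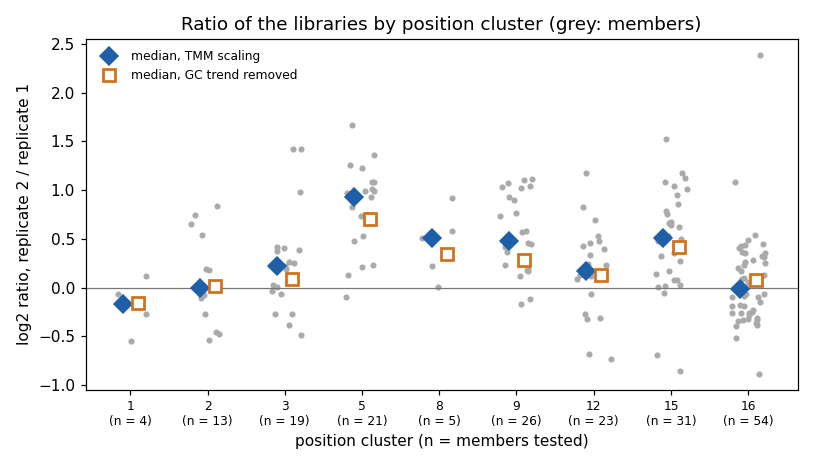
Grey points give the log2 ratio of replicate 2 over replicate 1 for tested members in the 9 clusters of 5 or more members, filled diamonds the cluster median under TMM scaling and open squares the median with the GC trend removed. The fifth cluster is highest under both, at 0.92 and 0.70.

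Members whose proteins have a described role varied widely in level. ZNF274, which binds the ends of zinc finger genes and recruits SETDB1 there, was at 6.74 and 7.19 TPM. ZNF224, a KRAB repressor, was at 5.52 and 8.46 TPM and was called higher in replicate 2 (log2 ratio 0.48, adjusted p = 0.000375, exact binomial test). ZNF675, an inhibitor of signalling through TRAF6, was at 3.56 and 8.0 TPM (log2 ratio 1.08). ZNF274 had a log2 ratio of -0.18, which was not called.

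ZNF536, a regulator of neuronal differentiation, stood alone in its cluster at 6.25 and 6.72 TPM. ZNF568 was at 1.5 and 2.04 TPM. ZNF331, an imprinted gene, was at 0.21 and 0.49 TPM. None of these 3 was called between the libraries, and of the members named for their role, ZNF93, ZNF808 and ZNF331 were not detected.

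The study linked a list of 100 zinc finger genes to its heat shock comparison, and 78 of them were members. The list was drawn from samples that include these, so it is not independent evidence of a direction. Of the 78, 55 were detected, and of 69 tested 31 were called higher in replicate 2 (44.9%, beside 20.9% of all genes tested) and 0 higher in replicate 1 (beside 22.2%), with a median log2 ratio of 0.44. Of the 137 tested members outside the list, with a median of 0.14, 32 were called higher in replicate 2 (23.4%, beside 20.9% of all genes tested). Another 16 of them were called higher in replicate 1 (11.7%, beside 22.2%). Median GC content was 44.8% on the list and 46.5% outside it, and with the GC trend removed the median ratios were 0.32 and 0.11.

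The study also named genes that contact the ribosomal gene clusters, and 66 members were read from that list, from text in which some names may be lost, so members counted outside it may belong to it. Of these 38 were detected, and their median level was 1.43 TPM, against 120 of 178 and 2.71 TPM for the other members. Of 52 tested, 21 were called higher in replicate 2 (40.4%, beside 20.9% of all genes tested) and 0 higher in replicate 1 (beside 22.2%). Their median GC content was 44.5%, and with the GC trend removed 16 and 0 were called (beside 14.6% and 14.2%). The lists shared 26 members, or 33.3% of the 78 and 39.4% of the 66.

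The co-repressors on which KRAB zinc finger proteins depend were expressed at far higher levels than the members. Of 31 genes of this pathway 30 were matched, and 29 of them were detected, with a median of 95.1 TPM. TRIM28, the direct partner of the KRAB domain and itself a gene of chromosome 19, was at 641 and 514 TPM. SUMO2, a modifier of TRIM28, was the highest at 756 and 822 TPM. ZFP57, a KRAB protein of imprinted genes, was not detected at 0.03 and 0.00 TPM.

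Other high genes of the pathway were DNMT1 at 397 and 418 TPM and RBBP7 at 367 and 369 TPM. SETDB1 was lower, at 40.1 and 40.5 TPM. Of 29 tested genes, 12 were called higher in replicate 2 (41.4%, beside 20.9% of all genes tested) and 14 higher in replicate 1 (48.3%, beside 22.2%). The median log2 ratio of the 29 was -0.07. At high counts the binomial test also called small ratios, such as DNMT1 at -0.08 with 11279 and 13149 counts. By the stricter edgeR test 4 were called higher in replicate 2 (beside 6.69%) and 0 higher in replicate 1 (beside 0.548%). TRIM28 fell on the replicate 1 side with a log2 ratio of -0.40 (adjusted p = 1.54e-64, exact binomial test), and ATRX had the highest ratio, 1.79 from 11.0 and 40.8 TPM. With the GC trend removed, 10 were called higher in replicate 2 and 6 higher in replicate 1 (beside 14.6% and 14.2%). The ratio of TRIM28 was then -0.16 and that of ATRX 1.21.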

How the data were processed

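Poly(A)+ RNA of 2 replicates was sequenced, and groups were taken from the labels, which record the molecule as genomic DNA although the protocol describes poly(A)+ RNA. The submitters' processing notes name Trimmomatic 0.36, STAR 2.6.1c and RSEM 1.3.1 with GRCh37, while the methods name featureCounts. The deposited tables carry the columns of RSEM. The authors deposited expected counts, in which multi-mapped reads were shared among genes. The deposited TPM values are scaled to transcript length and to a fixed total, and the deposited FPKM values to length and reads of the library. Whether counting used strand is not stated in the methods or labels, and a table of both libraries together was not used.

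Names, positions, transcripts and GC content came from GENCODE release 44 on GRCh37, which matched 96.1% of identifiers. Promoters came from RefSeq. Expected counts were rounded for the exact binomial test (scipy 1.17.1), with library shares from TMM factors of edgeR 4.0.16. With 1 library on each side, a quasi-likelihood test could not be fitted. Adjustment by Benjamini-Hochberg took all genes whose counts summed to 10 or more. The p-values measure only counting error between these 2 libraries. The test was checked on simulated data. Alternatives were library totals, DESeq2 1.42.0 size factors, other filters, removal of the GC trend and an assumed BCV of 0.1.

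Shared sequences were identical 50-base sequences of transcripts on the same strand. KRAB-like patterns, fingers and linkers were read by pattern from the longest translated reading frame. Intervals are exact Clopper-Pearson at 95%. The members and lists were chosen with earlier results of these data known. Genes were named by rule. These were the 10 of highest mean TPM, the highest of each cluster of at least 5, the 5 largest ratios toward each library among members whose counts summed to 100 or more, the 5 with the most shared sequence, members with a known role, the first 5 at 0, and the 5 highest pathway genes and any at 0, of which 1 is not reported here. The other genes named, which mark runs of neighbours, close copies, the limit of detection, SETDB1, ATRX and ZFP57, were chosen after their values were seen.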

Additional observations from a re-analysis of the deposited data

How the results depend on the processing

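No paired analysis was possible because both libraries belong to 1 group. The binomial test needs both libraries, so leaving out a replicate was run only for detection, with 162 to 171 members detected, and for the median level, 1.83 to 2.51 TPM. Detection moved to 52 members at TPM of at least 5, where 10 genes of the study-linked list passed. The median level moved to 2.82 TPM over members whose counts summed to 10 or more, and to 3.04 TPM when rescaled over protein-coding genes. Members called fell from 79 to 51 with the GC trend removed (3 higher in replicate 1) and to 30 with an assumed BCV of 0.1 (0 higher in replicate 1). Pathway genes called fell from 26 to 16 with the GC trend removed. At TPM of at least 0.1 the lowest cluster share was 59.5%, now in the fifth cluster, and the highest 100%. With gaps of 2 Mb the fifth cluster was also lowest, at 45.9%. The median ratio of the fifth cluster moved to 0.70 with the GC trend removed. That of the last cluster, -0.01, turned to 0.082 with the GC trend removed and to 0.036 with library totals, all close to 0. With the GC trend removed, the ratios of ZNF358, ZNF444 and ZNF581 turned to 0.012, 0.23 and 0.0027. The median ratio of the members stayed between 0.19 and 0.30 under every alternative run, including 2 chosen after seeing the data, the deposited TPM and the members overlapped by no other listed gene. Also chosen after seeing the data, the longest undetected run was 4 genes at a limit of 0.1 TPM and 23 at 5 TPM, against 11 at 1 TPM, and 66.2% of the 65 members overlapped by no other listed gene were detected. Of the named members tested, 6 lost and 1 gained a call with the GC trend removed, and 9 lost it with an assumed BCV of 0.1 and 1 with library totals. Causes were not tested. Depth limits what can be said of members at 0 and of close copies, and 2 libraries of 1 group carry no effect of heat shock.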
